A study of Mus musculus with 16 samples.

Results

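Of the 16 arrays in the series, 10 are described here. They are 3 of the 5 arrays made from the graft site of B16 melanoma at day 14 after inoculation, namely arrays 1, 3 and 4 by their replicate numbers, and all 7 control arrays. The day 14 arrays were chosen by measured values, because transcripts of host skin and muscle were present on them, while day 14 arrays 2 and 5 were left out because the same transcripts lay near background there. The 3 genes behind that choice were Krt14, Acta1 and Col1a1. Differences were computed for each of 9448 named genes.

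B16 is a pigmented melanoma line that grows as a graft in C57BL/6 mice, the strain from which it came. All 10 samples came from C57BL/6 mice aged 8 weeks, and the labels name no genetic change and no treatment other than the graft. The day 14 samples are called tumor microenvironment and the controls are called control tissue, with no word on the sex of the mice, the site of the graft, the tissue taken as control, or whether mice were pooled or each number was a separate mouse. The p-values below weigh only the variation among these samples, and some of it may be technical. Levels are log2 signals of Illumina bead arrays, on which a step of 1 is a 2-fold change, and a gene was detected on all 10 arrays unless a count is given. The number of arrays limits the precision.

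Mouse skin holds an epidermis of keratinocytes, hair follicles that pass through phases of growth and rest, fat, a collagen-rich dermis and a thin sheet of skeletal muscle. Growing follicles make hair shaft and inner root sheath keratins, which resting follicles largely lack, and in black mice growing follicles also make melanin. Melanoma cells carry the same pigment transcripts as follicle melanocytes, so in a piece of skin with a graft these transcripts can come from either. Tumors also draw in macrophages and neutrophils, and arginase from such myeloid cells is known to restrain T cells. In these bulk samples fewer cells of a type and less RNA per cell cannot be told apart.

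The control arrays were not alike. Probes detected numbered 19466 to 21100 on the controls, 21669 on day 14 array 1, 19337 on array 3 and 19530 on array 4. Skin, muscle and collagen transcripts were high on all 7 controls. Pigment transcripts were present on controls 2 to 7 at levels that overlapped those of the tumor arrays, and were low on control 1 alone, where the mean of 17 melanocyte genes was 6.65 against 9.46 to 11.96 on the other controls. Control 6 stood apart too, with 289 genes at least 2-fold above and 474 at least 2-fold below all 6 other controls, together 8.08% of genes. Across genes, the array most like control 6 was day 4 array 1 (Pearson r = 0.98), and the array most like controls 4, 5 and 7 was day 14 array 1 (r = 0.984, 0.961 and 0.98). With pigment transcripts on 6 controls and day 14 array 1 inside the control range, whether every array carries its right label was not tested, and each difference below is between arrays labelled day 14 and arrays labelled control. Some results that rest on control 1 or control 6 are given with and without it, and others are given with all 7 controls only.

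The comparison asks which transcripts of the graft site differ from control tissue late in tumor growth, where host tissue is still sampled with the tumor. No gene separated the day 14 arrays from the controls after adjustment. In limma's test with Benjamini-Hochberg adjustment, 0 of 9448 genes were called (0%) in either direction, a call being a change of 2-fold or more with an adjusted p under 0.05. The lowest adjusted p was 0.943. Unadjusted p-values were under 0.05 for 184 genes (1.95% of those tested), 88 higher and 96 lower at day 14. The median log2 difference of all genes was -0.04 and the median standard error was 0.289, with quartiles of 0.228 and 0.402. Differences were above 0 for 4263 genes and below 0 for 5185. For 60.7% of genes the 95% confidence interval excluded a 2-fold difference in both directions. Of the sum of squares, 10.7% lay between the groups, where 2 groups that do not differ would give 11.1%. A further 8200 probes that were given no gene name here were tested by probe, and none was called (lowest adjusted p = 0.991 by limma, with 232 unadjusted p-values under 0.05). Names were to hand only for the 16247 probes of a value table that the authors deposited. Probes outside it count as unnamed even where they stand for a known gene.

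**Figure D1:**
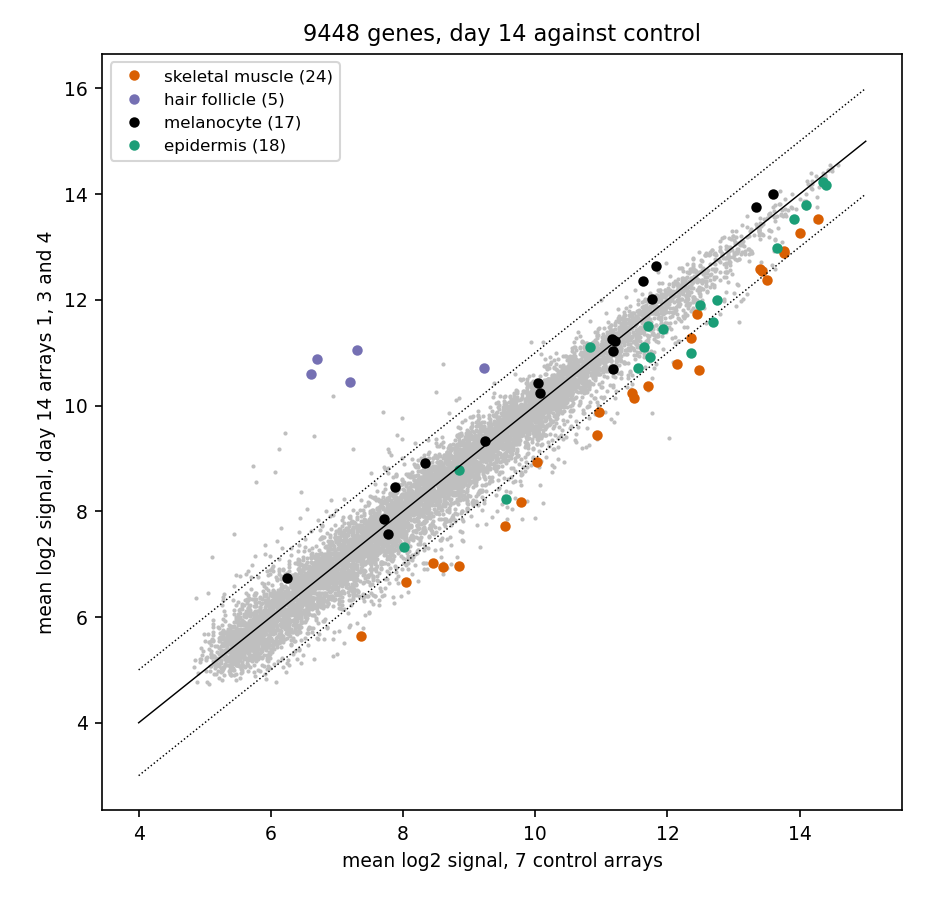
Mean log2 signal of each of 9448 genes over day 14 arrays 1, 3 and 4 (vertical) against its mean over the 7 control arrays (horizontal), with a solid line at equality and dotted lines at 2-fold. The 24 skeletal muscle genes lie below the line and the 5 hair follicle genes lie above it by 1.47 to 4.19, with 0 genes called.

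Means differed by at least 2-fold, with no test, for 67 genes higher at day 14 (0.709%) and 209 lower (2.21%). The arrays that were most extreme in these genes are counted next, and such a count does not show that a single array set the mean. Among the 67 higher genes, day 14 array 1 lay within the control range for 56, array 4 was the most extreme of the 10 arrays for 45 and array 3 for 19. Among the 209 lower genes, array 1 lay within the control range for 207 and array 3 was the most extreme array for 187. Control 6 moved the same way as these arrays, being the highest control for 48 of the 67 and the lowest for 176 of the 209. The matching shares over all genes were not counted for control 6 or array 1, so these counts need not be particular to these genes. Across all genes, control 6 lay at least 2-fold above the other controls for 289 and below them for 474. Array 1 lay at least 2-fold outside the control range for 0 genes.

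Groups that did not overlap at all were rare. All 3 day 14 arrays lay above all 7 controls for 17 genes (0.18%) and below them for 29 (0.307%). With a difference of at least 2-fold as well, 2 genes lay above (0.0212%) and 1 below (0.0106%). Array weights, which let arrays that vary more count less, gave array 1 a weight of 4.33 and arrays 3 and 4 weights of 0.209 and 0.407, so that a difference fitted with them rests mostly on array 1. The count of 3 genes was 113 without day 14 array 1, 29 without array 4, 6 without array 3, 18 without control 6 and 6 without control 4. No overlap is easier to meet with fewer arrays, so a rise alone does not show that the count depended on the array left out.

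Rnd2 had levels of 7.26, 8.91 and 7.44 on day 14 arrays 1, 3 and 4, and ran from 5.7 to 7.11 on the controls with a median of 6.45. The 3 day 14 levels thus lay above each control, the lowest of them narrowly. The log2 difference of 1.43 had a standard error of 0.4 (95% interval 0.55 to 2.31, adjusted p = 0.943 by limma). On the left-out day 14 arrays 2 and 5 it stood at 7.52 and 9.12, again above the controls.

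Atp6v0a1, a membrane subunit of the proton pump that acidifies lysosomes and melanosomes, had levels of 7.62, 8.59 and 7.54 at day 14, against 6.15 to 7.41 on the controls with a median of 6.92. Its difference of 1.01 had a standard error of 0.3 (adjusted p = 0.943 by limma), and the left-out arrays gave 7.34 and 8.56, of which the first was within the control range. Jsrp1, a protein of the calcium-release junctions of skeletal muscle, was the only gene below. Its levels were 5.32, 5.16 and 4.94, with 2 of the 3 arrays above detection, and the controls ran from 5.44 to 8.27 with a median of 5.95. It differed by -1.11, standard error 0.52 (adjusted p = 0.943 by limma). Array 2 stood at 5.82, inside the control range, and array 5 at 4.67, below it.

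The 3 day 14 arrays differed from each other as well as from the controls. Array 1 had 0 genes at least 2-fold outside the range of the 7 controls, array 3 had 113 above (1.2% of genes) and 458 below (4.85%), and array 4 had 132 above (1.4%) and 21 below (0.222%). Array 1 correlated at 0.873 with array 3 and at 0.916 with array 4 across genes, and arrays 3 and 4 at 0.817 with each other. Array 1 came nearer to single controls, up to 0.984, than to either of its own group. No gene was at least 2-fold above every control on all 3 arrays, 5 were so on 2 arrays and 235 on 1, and below the controls the counts were 0, 0 and 479.

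**Figure D2:**
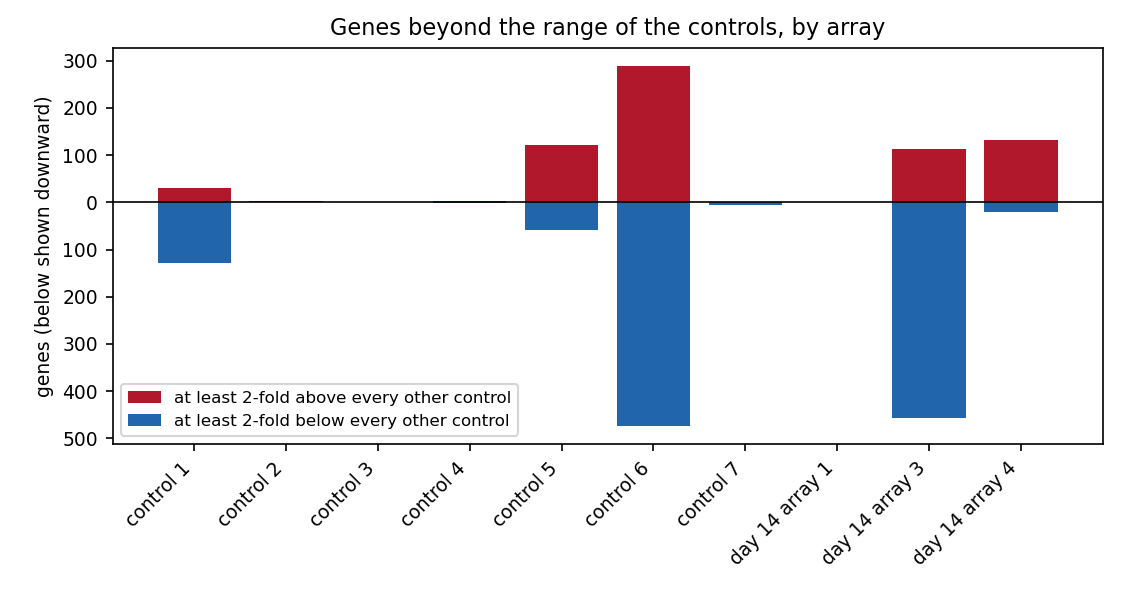
Genes at least 2-fold above (red, upward) or below (blue, downward) every control array, by array, with each control set against the other 6. Day 14 array 1 has none, array 3 has 113 above and 458 below, and array 4 has 132 above and 21 below, each set against all 7 controls. Control 6 has 289 above and 474 below, set against 6 controls that exclude it, so its count is not on the same range.

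The genes that chose the arrays are given as values, with no test of them reported singly, though they are among the 9448 genes fitted. Krt14, a keratin of basal keratinocytes, had levels of 14.29, 13.77 and 14.62 on day 14 arrays 1, 3 and 4, and of 6.4 and 4.64 on the left-out arrays 2 and 5. Acta1, the actin of skeletal muscle, stood at 14.01, 12.23 and 13.57 against 4.45 and 5.45, and Col1a1, a chain of type I collagen, at 13.85, 12.28 and 13.83 against 4.75 and 4.6. No array lay between the kept and the left-out levels. Control levels ran from 14.18 to 14.5 for Krt14, 13.07 to 14.4 for Acta1 and 12.35 to 14.21 for Col1a1. Because arrays were kept for these host transcripts, closeness to the controls in skin, muscle and collagen genes was part of the choice. The lists below include these genes in their means, medians and counts. Krt14 is among the 18 keratinocyte and epidermis genes, Acta1 among the 24 skeletal muscle genes and Col1a1 among the 20 fibroblast and fibrillar matrix genes. With all 5 day 14 arrays the differences would be -3.61 for Krt14, -4.06 for Acta1 and -3.67 for Col1a1, in place of -0.13, -0.73 and -0.21.

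Epidermal transcripts were near the control level on arrays 1 and 4 and low on array 3. The mean of 18 keratinocyte and epidermis genes was 12.16 on array 1, 9.77 on array 3 and 12.45 on array 4, with controls from 11.07 to 12.78 and a median of 12.06. None of the 18 was called, 17 had a difference below 0, 3 were at least 2-fold lower in the mean (2.21% of all genes were), and the median difference was -0.56. On array 3 alone, 8 of the 18 lay at least 2-fold below every control, as did 4.85% of all genes there, among them Dsc3, a desmosomal cadherin, at 4.99 and not above detection there, against 8.1 to 11.07 on the controls, 9.83 on array 1 and 9.9 on array 4. Trp63, the transcription factor of basal keratinocytes, was at 8.59 on array 3 against a lowest control of 10.68, and at 11.38 and 12.15 on arrays 1 and 4. Krt1, the keratin of differentiating cells, gave 13.29, 8.25 and 11.47 against controls of 9.14 to 13.73, of which the lowest was control 6. Flg2, a filaggrin-like protein of the cornified layer, gave 12.88, 9.2 and 12.65 against 11.27 to 13.39. Without array 3 the median difference of the list was 0.18, and with array weights it was -0.11. It was -1.07 without array 4, -0.92 without array 1 and -0.73 without control 6.

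Stress and wound keratinocyte genes had a median difference of -0.07 over 11 tested members, with 0 called. In the mean, 1 was at least 2-fold higher (0.709% of all genes were) and 4 at least 2-fold lower (2.21% of all genes were). Stfa1, a cysteine protease inhibitor of the stefin family, had the lowest difference of all genes at -2.63 with a standard error of 1.82. It stood at 13.01, 4.84 and 10.32 on the 3 arrays, with array 3 not above detection, and at 7.41 to 14.28 on the controls. Krt6b, a keratin of wounded and follicular epithelium, stood at 7.71, 8.74 and 11.06 against 7.4 to 13.31, the highest being control 1. Sprr2d, a cornified envelope protein, stood at 5.9, 4.68 and 5.21 against 4.4 to 8.92, and was detected on 2 of 3 day 14 arrays and on 6 of 7 controls. Defb14, an antimicrobial defensin, stood at 9, 5.04 and 6.93 against 6.15 to 9.24, with 2 of 3 day 14 arrays above detection. The groups overlapped in all 4 genes.

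Skeletal muscle transcripts had the lowest median of any list with 5 or more tested members. All 24 tested members had a difference below 0, from -1.87 to -0.7 with a median of -1.27, and 17 were at least 2-fold lower in the mean (2.21% of all genes were), yet 0 were called and none was free of overlap with the controls. The mean of the list was 11.35 on array 1, 8.67 on array 3 and 10.34 on array 4. Controls spanned 9.5 to 13.18 with a median of 11.42, so array 3 alone lay below them, and 9 of the 24 genes there were at least 2-fold below every control, against 4.85% of all genes. Ttn, the giant spring protein of the sarcomere, had levels of 12.49, 8.3 and 11.26 against 10.15 to 14.1 (difference -1.78, standard error 0.92). Xirp2, an actin-binding protein of muscle, gave 8.19, 5.1 and 7.59 against 6.33 to 11.62 (difference -1.87, standard error 1.02). Myh4, a fast myosin heavy chain, gave 9.65, 5.23 and 8.31 against 6.57 to 12.5. Neb, the ruler of thin filaments, was above detection on 1 of 3 day 14 arrays and 6 of 7 controls, at 7.84, 4.74 and 4.38 against 4.43 to 10.38. Xirp2 was above detection on 2 of 3 day 14 arrays. In each of these 4 genes control 5 was the highest and control 6 the lowest control. Without array 3 the median difference of the list was -0.48, without control 5 it was -0.94, and with array weights it was -0.23. It was lower, at -1.9, without array 1 and at -1.63 without control 6.

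**Figure D3:**
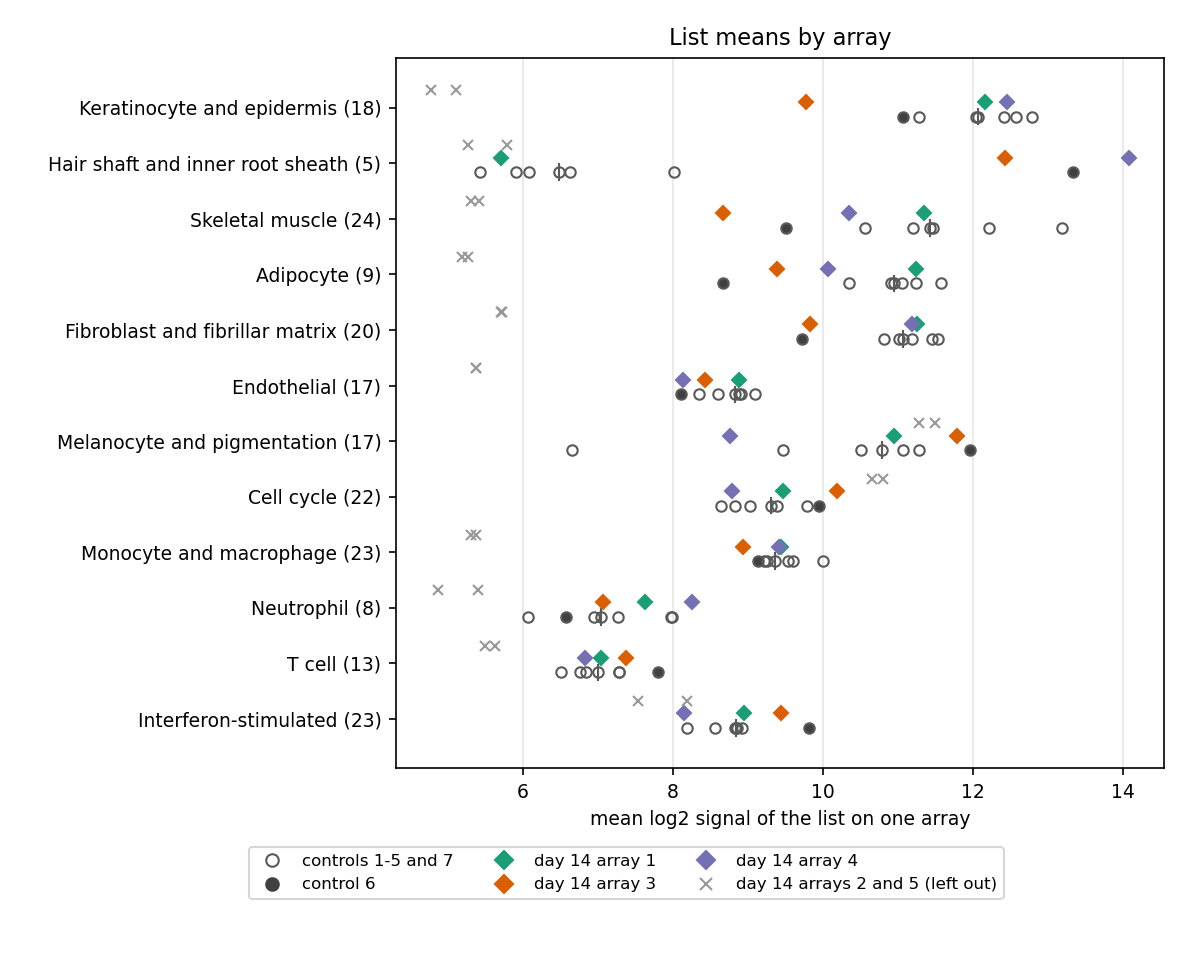
Mean log2 signal of the tested members of 12 gene lists (numbers of genes in parentheses) on single arrays. Circles are controls with control 6 filled, a tick marks the control median, diamonds are day 14 arrays 1, 3 and 4, and crosses are the left-out day 14 arrays 2 and 5. Array 1 lies within the control range in the 12 lists, array 3 lies below it in epidermis (9.77), skeletal muscle (8.67) and macrophage genes (8.93), and the hair list is high on arrays 3 and 4 and on control 6.

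Fat and dermal transcripts were lowest of the 3 arrays on array 3, with smaller differences than muscle. Of 9 adipocyte genes all had a difference below 0, with a median of -0.47 and 0 called. Adipoq, the adipocyte hormone adiponectin, gave 12.42, 10.64 and 11.23 against 9.05 to 12.76, and Lep, the hormone leptin, gave 11.35, 8.54 and 9.64 against 8.44 to 11.28, so that array 1 lay just above the highest control. The 9 sebaceous and skin lipid genes also lay below 0, with a median of -0.41 and 1 at least 2-fold lower (2.21% of all genes were). For 20 fibroblast and fibrillar matrix genes the median was -0.24, 7 above 0 and 13 below, with Lum, a collagen-binding proteoglycan, at 13.24, 10.63 and 12.54 against 11.38 to 13.86, and Pdgfra, a growth factor receptor of fibroblasts, at 10.57, 8.77 and 10.74 against 9.07 to 11.63. Array 3 was the low array in each of these 4 genes, and control 6 was lower still in Adipoq and Lep.

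Among 17 endothelial genes the median difference was -0.2, with 3 above 0, 14 below and 1 at least 2-fold lower in the mean (2.21% of all genes were). The list mean was 8.88, 8.42 and 8.13, lowest on array 4. Pecam1, the adhesion molecule of endothelium, gave 9.6, 8.28 and 8.45 against 8.72 to 9.68, so arrays 3 and 4 lay below the controls. Lyve1, a receptor of lymphatic vessels and of some macrophages, gave 8.06, 6.07 and 8.26 against 6.39 to 10.01 with control 6 the lowest control. Esm1, a proteoglycan of growing vessel tips, gave 7.6, 8.92 and 5.98 against 5.16 to 8.5, highest on array 3 and, among the controls, on control 6. Mmrn1, a carrier protein of platelets and endothelium, named because it lay far below the controls on array 3 after its values were seen, gave 8.03, 4.5 and 7.51 against 7.3 to 8.77, with 2 of 3 day 14 arrays above detection. None of these was called.

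Wound and tumor matrix genes were split in direction, with a median difference of 0.02 over 19 genes, 10 above 0 and 9 below. Their differences ran from -0.73 to 0.5, and the members with the largest are not described here. Fn1, fibronectin, stood at 12.56, 11.99 and 13.04 against 10.69 to 13.22, a difference of 0.03 with a standard error of 0.48, though its dimmer probes ran from -0.44 to 0.18. Tnc, the matrix protein tenascin C of healing tissue, stood at 8.69, 9.05 and 10.1 against 8.52 to 11.43. Of the proteases, Mmp12, an elastase of macrophages, stood at 5.87, 6.5 and 5.99 against 5.18 to 6.74, and Mmp13, a collagenase, at 5.81, 8 and 5.55 against 5.78 to 8.27. Each of these ranges overlapped. The 17 matrix proteases and inhibitors had a median of -0.05, and Spp1 and Postn were not among the genes tested.

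Hair follicle genes had the highest median difference of the lists, 3.74 over the 5 of 27 members that were tested, and the groups overlapped in each. All 5 were at least 2-fold higher in the mean (0.709% of genes were) and 0 were called. The mean of the 5 was 5.71 on array 1, 12.42 on array 3 and 14.08 on array 4. Controls 1 to 5 and 7 lay between 5.43 and 8.01, and control 6 lay at 13.33. Array 1 was thus within the low controls, and arrays 3 and 4 were with control 6. Without control 6 the median difference was 4.89. With array weights the median difference was 0.04, and Krt71 and Krt27 were at -0.04 and -0.62.

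Krt71, a keratin of the inner root sheath, had levels of 4.49, 13.54 and 14.64 on arrays 1, 3 and 4, against 4.39 to 7.89 on 6 controls and 14.35 on control 6. It was above detection on 2 of 3 day 14 arrays and 4 of 7 controls. The difference of 4.19, the highest of all genes, had a standard error of 2.46 (95% interval -1.23 to 9.61, adjusted p = 0.943 by limma). Without control 6 it was 5.47, without array 1 it was 7.39, and without array 4 it was 2.32. Krt27 and Krt28, partner keratins of the same sheath, gave 4.69, 13.97 and 14.48, and 5.86, 11.65 and 13.81, with control 6 at 14.18 and 12.59 and the next control at 9.12 and 6.99. Krt33a, a keratin of the hair shaft, gave 4.91, 12.54 and 14.35, with control 6 at 13.6 and the next at 7.46. Dlx3, a transcription factor of the hair matrix and upper epidermis that falls outside the naming rule, gave 8.62, 10.41 and 13.09, with control 6 at 11.94 and the next at 9.33. Krt27 was above detection on 4 of 7 controls and 2 of 3 day 14 arrays, and Krt33a on 5 of 7 controls. The order of arrays, with array 4 highest, then control 6, then array 3, was the same in all 5 genes.

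**Figure D4:**
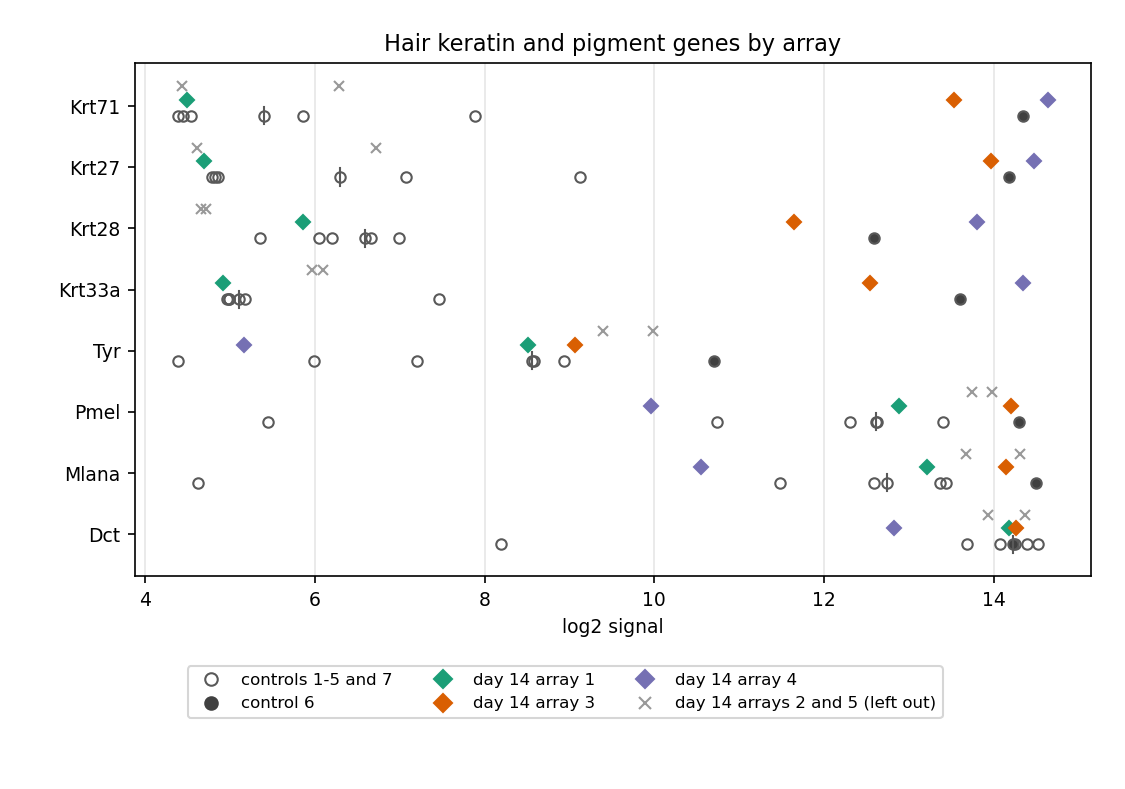
Log2 signal of 4 hair keratin and 4 pigment genes on single arrays. Circles are controls with control 6 filled, a tick marks the control median, diamonds are day 14 arrays 1, 3 and 4, and crosses are the left-out arrays. For the hair keratins control 6 and day 14 arrays 3 and 4 lie at 11.65 to 14.64 and every other array at or below 9.12, while pigment genes are lowest on control 1 and, at day 14, on array 4.

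The promoters of the 3 inner root sheath keratins are shown because these genes stood at high level on the same 3 arrays of the 10. The sequences are from RefSeq (GRCm38.p6), from 250 bases before to 50 after the start site, 5′ to 3′ on the minus strand, on which all 3 genes lie. Capitals mark TATAAA, the core of a TATA box, and CTTTGA, a core letter string of sites for the LEF and TCF factors that act in Wnt signalling and hair follicles, each on either strand (TCAAAG is CTTTGA on the other strand). Krt33a had no entry in the table. Positions are Krt71 at chr15:101743048-101743347, Krt27 at chr11:99351069-99351368 and Krt28 at chr11:99374854-99375153.
Krt71: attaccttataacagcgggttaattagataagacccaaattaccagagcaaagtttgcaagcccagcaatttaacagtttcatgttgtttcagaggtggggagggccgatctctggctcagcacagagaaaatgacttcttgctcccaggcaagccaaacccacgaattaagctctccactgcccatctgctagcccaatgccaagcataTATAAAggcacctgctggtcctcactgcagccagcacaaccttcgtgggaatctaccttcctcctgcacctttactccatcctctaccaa
Krt27: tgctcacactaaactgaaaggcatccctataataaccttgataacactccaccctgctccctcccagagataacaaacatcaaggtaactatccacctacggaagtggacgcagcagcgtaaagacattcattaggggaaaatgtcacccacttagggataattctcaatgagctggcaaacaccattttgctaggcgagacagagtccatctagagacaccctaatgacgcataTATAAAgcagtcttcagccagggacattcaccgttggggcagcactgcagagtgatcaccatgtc
Krt28: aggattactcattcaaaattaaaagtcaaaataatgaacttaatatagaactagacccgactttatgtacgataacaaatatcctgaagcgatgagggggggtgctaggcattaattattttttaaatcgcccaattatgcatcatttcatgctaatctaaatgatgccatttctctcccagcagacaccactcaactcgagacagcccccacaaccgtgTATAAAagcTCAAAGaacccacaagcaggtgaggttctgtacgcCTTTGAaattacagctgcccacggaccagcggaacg
TATAAA begins 40 bases before the start site in Krt71, 15 before in Krt27 and 30 before in Krt28. CTTTGA is in Krt28 alone, 14 bases after the start site on the printed strand and 21 before it on the other. Of 32851 promoter windows of this length, 13.6% hold TATAAA and 16% hold CTTTGA on either strand. A match is a description of letters and not a site of binding.

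A few more genes were high on array 4, where 1.4% of all genes lay at least 2-fold above every control, of which Wnt10b is named by rule and the others were picked after their values were seen. Gjb6, a gap junction protein of hair follicle and epidermis, was at 12.05 on array 4 and at 7.52 and 8.51 on arrays 1 and 3, against 5.38 to 9.93 on the controls with control 6 the highest. Wnt10b, a Wnt ligand of follicle growth, was at 6.98 on array 4, at 5.09 and 5.32 on arrays 1 and 3, and at 4.98 to 5.67 on the controls, 6 of which were above detection. Wnt5a was at 10.83 on array 4, 9.03 on array 1 and 7.65 on array 3, above and below a control range of 8.72 to 9.8, and its probes differed in sign (-0.17 for the brighter, 0.13 for the dimmer). Over the 22 TGF-beta, BMP and Wnt genes the median difference was -0.02, with 0 called.

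Pigment and melanocyte genes did not separate the groups. The mean of 17 genes was 10.95, 11.79 and 8.76 on arrays 1, 3 and 4, and 6.65 to 11.96 on the controls with a median of 10.78. The median difference was 0.25, with 14 above 0, 3 below and 0 called. It was -0.38 without control 1, -0.4 without day 14 array 3 and 1.11 without array 4, so its sign rested on single arrays. Array 4, highest in hair keratins, was the lowest of the 3 in pigment.

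Tyr, the enzyme that starts melanin synthesis, had levels of 8.51, 9.07 and 5.16 against 4.39 to 10.7 with a median of 8.56 (difference -0.19, standard error 1.24), and was above detection on 6 of 7 controls. Pmel, which forms the fibrils of the melanosome, gave 12.89, 14.21 and 9.96 against 5.45 to 14.3 (difference 0.72, standard error 1.63). Mlana, a melanosome membrane protein, gave 13.22, 14.15 and 10.55 against 4.62 to 14.5, and Dct, an enzyme downstream of Tyr, gave 14.18, 14.26 and 12.83 against 8.19 to 14.53. In these 4 genes control 1 was the lowest control. Oca2, a melanosomal anion channel, gave 9.42, 10.87 and 6.44 against 4.41 to 11.36, and Gpr143, a melanosomal receptor, 8.74, 10.81 and 5.83 against 4.38 to 11.01. Control 6 was the highest control in both. Mlana and Gpr143 were above detection on 6 of 7 controls and Oca2 on 5. Without control 1 the differences became -0.31 for Pmel, -0.38 for Mlana and -0.44 for Dct.

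Cell cycle genes ordered the arrays in the same way as pigment genes at day 14. The mean of 22 genes was 9.47, 10.19 and 8.78, against 8.64 to 9.94 on the controls with a median of 9.3, so that array 3 alone lay above the controls. The median difference was 0.26, with 16 above 0 and 6 below, and 0 were called. Cdk1, the kinase of mitotic entry, gave 10.2, 11.66 and 9.8 against 9.07 to 11.08 (difference 0.64, standard error 0.48). Top2a, the topoisomerase of dividing cells, gave 10.44, 10.84 and 9.97 against 9.63 to 11.2, and Birc5, the mitotic protein survivin, gave 10.4, 11.5 and 9.3 against 8.87 to 10.95. Mcm7, a subunit of the replicative helicase, gave 8.73, 9.26 and 7.29 against 5.91 to 8.82, and Pcna, the sliding clamp of DNA synthesis, gave 5.62, 5.41 and 6.14 against 4.82 to 6.08. Pcna, above detection on 5 of 7 controls, was the exception in being highest on array 4.

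Of all 9448 genes, 5 lay at least 2-fold above every control on arrays 3 and 4 together, which is 4.42% of the genes so placed on array 3 and 3.79% of those on array 4. Of these, Chil3 and Retnlg are named by rule and Rnase2a, Car4 and Mrgprg after their values were seen. Rnase2a, a member of the eosinophil-associated ribonuclease family, had levels of 5.21, 10.45 and 10.03 on arrays 1, 3 and 4, and 4.56 to 6.72 on the controls with a median of 5.79, being above detection on 5 of 7 controls. Array 1 was within the control range and the other two were about as high as each other. It differed by 2.79, standard error 0.97 (adjusted p = 0.943 by limma). The difference was 4.47 without array 1 and 1.85 without array 3, and with array weights it turned to -0.21.

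Chil3, a chitinase-like protein of alternatively activated macrophages and of neutrophil precursors, gave 5.54, 9.49 and 7.69 against 4.77 to 6.5, with 6 of 7 controls above detection (difference 2.12, standard error 0.69). Retnlg, a resistin-like protein of neutrophils, gave 7.79, 9.77 and 10 against 5.57 to 8.65 (difference 1.94, standard error 0.69). Car4, a membrane-bound carbonic anhydrase, gave 5.64, 7.94 and 7.81 against 4.54 to 5.91, with 3 of 7 controls above detection (difference 2.02, standard error 0.48). Mrgprg, a receptor of the Mas-related family, gave 6.04, 7.41 and 7.18 against 5.38 to 6.1 (difference 1.23, standard error 0.28). With array weights the differences were 0.54 for Chil3, 0.48 for Retnlg, 0.74 for Car4 and 0.57 for Mrgprg, and in the authors' deposited log2 values they were 1.17, 1.38, 0.93 and 0.56. Each had an adjusted p of 0.943 in the limma fit, and in each array 1 lay inside the control range. On the left-out arrays 2 and 5, which carry few host transcripts, Rnase2a stood at 4.49 and 4.66, Chil3 at 4.37 and 4.96, Car4 at 4.42 and 4.45 and Retnlg at 4.5 and 4.55, while Mrgprg stood at 5.97 and 6.54. Control 6, which shared the high hair keratins, was not high in any of the 5 genes.

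Arg1, arginase 1, gave 9.09, 11.22 and 10.97 against 8.43 to 10.09 with a median of 9.65, so arrays 3 and 4 lay above the controls and array 1 among them. It differed by 1.06, standard error 0.5 (95% interval -0.05 to 2.17, adjusted p = 0.943 by limma). It was 1.73 without array 1 and 0.67 without array 3, and it turned to -0.16 with array weights and to -1.27 with all 5 day 14 arrays. A dimmer probe for the gene gave 1.01. Over the 11 suppressive and alternatively activated myeloid genes, which include Arg1 and Chil3, the median difference was 0.1, with 8 above 0, 2 at least 2-fold higher (0.709% of genes were) and 0 called. Hmox1, heme oxygenase 1, gave 8.94, 8.39 and 8.58 against 7.34 to 9.07.

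**Figure D5:**
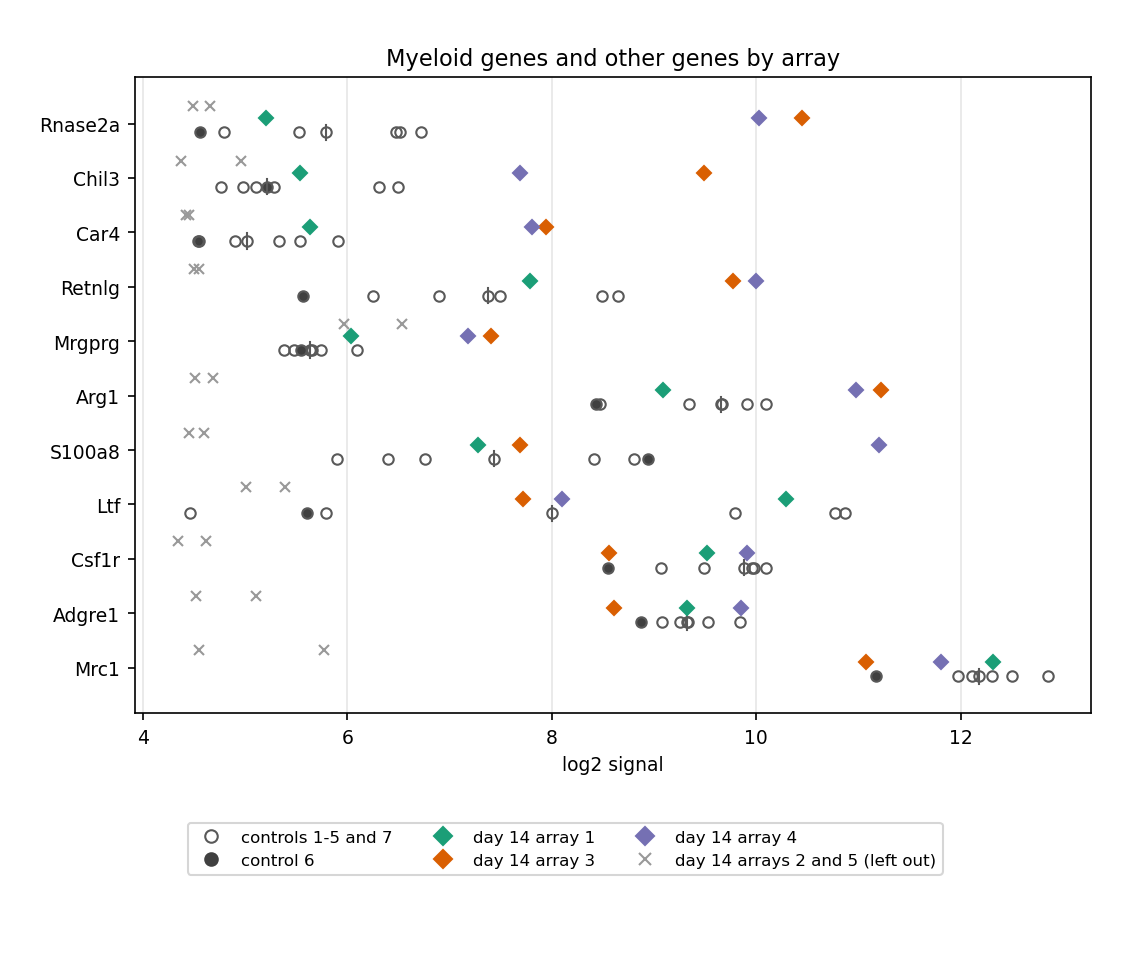
Log2 signal of 11 genes on single arrays. Circles are controls with control 6 filled, a tick marks the control median, diamonds are day 14 arrays 1, 3 and 4, and crosses are the left-out arrays. Rnase2a, Chil3, Car4, Retnlg, Mrgprg and Arg1 are above every control on arrays 3 and 4 and within the control range on array 1, S100a8 is above on array 4 alone (11.2), and Csf1r, Adgre1 and Mrc1 show no such split.

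Macrophage identity genes did not follow Arg1. The mean of 23 monocyte and macrophage genes was 9.44, 8.93 and 9.41 against 9.13 to 10 on the controls, with 5 differences above 0, 18 below, a median of -0.13 and 0 called. Csf1r, the receptor of the macrophage growth factor, gave 9.52, 8.56 and 9.91 against 8.55 to 10.09, and Adgre1, a surface receptor that marks mouse macrophages, gave 9.32, 8.61 and 9.85 against 8.87 to 9.84. Mrc1, the mannose receptor, gave 12.31, 11.07 and 11.81 against 11.17 to 12.85. Dimmer probes gave differences of the other sign, 0.1 for Csf1r in place of -0.25 and 0.24 for Adgre1 in place of -0.06. Array 3, highest in Arg1, was the lowest of the 3 in each of them. Ccr2, the monocyte homing receptor, gave 6.17, 4.61 and 5.68 against 5.77 to 7.07, with array 3 not above detection (difference -0.82, standard error 0.37, adjusted p = 0.943 by limma). Itgam, an integrin of myeloid cells, gave 5.99, 5.79 and 5.42 against 5.22 to 7.16, and Cx3cr1, a receptor of patrolling monocytes, 6.49, 5.79 and 5.5 against 5.93 to 7.4. Trem2, a lipid receptor of macrophages, gave 6.96, 7.96 and 7.56 against 5.69 to 7.78.

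The 8 neutrophil genes had a median difference of 0.56, with 7 above 0, 2 at least 2-fold higher (0.709% of all genes were) and 0 called. Their mean was 7.62, 7.07 and 8.25 against 6.06 to 7.99, so array 4 alone lay above the controls. S100a8, an inflammatory calcium-binding protein of neutrophils that stressed keratinocytes also make, gave 7.28, 7.69 and 11.2 against 5.9 to 8.94 (difference 1.2, standard error 0.9). Ltf, the granule protein lactoferrin, was highest on array 1, at 10.29 against 7.72 and 8.1 on arrays 3 and 4, with controls at 4.46 to 10.87 and 6 of 7 above detection. Il1r2, the decoy receptor for interleukin 1, gave 8.99, 6.35 and 9.26 against 7.43 to 10.02. Members of the list thus differed in which array was high. Krt6b was highest of the 3 on array 4 too, and what part keratinocytes had in S100a8 was not tested.

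The mean of the T cell list lay within the range of the controls, at 7.04, 7.37 and 6.83 against 6.5 to 7.8. Over 13 genes the median difference was 0.08, 8 above 0 and 5 below, and over 8 NK and cytotoxic genes it was 0.09, with 0 called in either list. Cd3e, part of the signalling complex of the T cell receptor, gave 6.65, 7.18 and 6.82 against 6.09 to 8.41 (difference -0.32, standard error 0.38, 95% interval -1.15 to 0.52). The interval for Foxp3, the transcription factor of regulatory T cells, was narrower, at -0.3 to 0.71 around a difference of 0.2, with levels of 9.17, 10.07 and 9.55 against 9.12 to 9.85. This rests on its brighter probe, which stood at 9.9 and 10.2 on left-out arrays 2 and 5, where Cd3e was at 4.61 and 4.28. The dimmer probe gave -0.27, so its sign is unsettled. Cd8a, Gzmb, Ifng and Nos2 were not among the genes tested.

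Cd274, which encodes the checkpoint ligand PD-L1, gave 9.57, 10.46 and 8.3 against 8.6 to 10.21 with a median of 9.28 (difference 0.07, standard error 0.44). Array 3 lay just above the controls and array 4 just below them. The 11 checkpoint genes had a median of -0.03, with differences from -0.78 to 0.1, 5 above 0, 6 below and 0 called. Their mean was 7.81, 7.33 and 7.16 on arrays 1, 3 and 4 against 7.35 to 7.93 on the controls. Arrays 3 and 4 thus lay below the controls, array 3 narrowly.

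Chemokines of the interferon response were high on array 3 and on control 6. Cxcl9 gave 9.22, 11.25 and 7.71 on arrays 1, 3 and 4, with 6 controls at 8.29 to 9.56 and control 6 at 12.05. Cxcl10 gave 8.42, 10.77 and 7.03, with 6 controls at 6.96 to 8.47 and control 6 at 11.04. Both draw T cells through the receptor CXCR3. Without control 6 the differences were 0.68 for Cxcl9 and 1.1 for Cxcl10, in place of 0.2 and 0.61. On left-out arrays 2 and 5 these genes parted, with Cxcl9 at 5.16 and 4.47 and Cxcl10 at 11.74 and 9.07. Ifi47, an interferon-inducible GTPase, gave 7.39, 9.23 and 7.18 with 6 controls at 6.52 to 7.38 and control 6 at 9.58. Ccl5, a T cell and NK cell chemokine, gave 7.98, 9.58 and 8.38 with controls at 6.37 to 9.68, control 6 again the highest. Isg15, a ubiquitin-like interferon-induced protein, gave 8.13, 9.09 and 7.23 with controls at 6.9 to 8.72, where control 4 was the highest.

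Over 23 interferon-stimulated genes the median difference was -0.06, with 10 above 0, 13 below, 1 at least 2-fold higher (Bst2 at 1.07, where 0.709% of all genes were) and 0 called. Their mean was 8.95, 9.44 and 8.15 against 8.19 to 9.81, so array 3 lay inside the control range only because of control 6. Among inflammatory mediators, 26 genes had a median of 0.04. Ccl2, a monocyte chemokine, gave 6.36, 6.86 and 6.13 against 5.85 to 6.76, and Il1b, interleukin 1 beta, gave 8.07, 6.88 and 7.42 against 6.31 to 8.52. Cxcl14, a chemokine of epithelium and hair follicle, gave 9.15, 9.68 and 11.69 against 8.79 to 10.58, high on the hair-keratin-rich array 4, with control 6 the highest control.

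Antigen presentation genes had medians near 0. The 12 MHC class II genes had a median difference of -0.12 and the 11 class I genes 0.01, each with 0 called. H2-Aa, a class II chain, gave 10.92, 9.87 and 11.5 against 10.31 to 11.82. Among 12 dendritic and Langerhans cell genes the median was -0.23, and Cd207, the langerin of epidermal Langerhans cells, gave 9.81, 6.46 and 7.87 against 7.18 to 9.9. The 8 mast cell genes had a median of -0.24 and the 13 complement and coagulation genes -0.24. Array 3 was the lowest of the 3 arrays in H2-Aa and Cd207, as it was in epidermis.

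Ddit4, an inhibitor of mTORC1 induced by hypoxia and stress, was the only gene of the lists free of overlap. Its levels were 9.34, 10.31 and 9.71 against 8.47 to 9.33 with a median of 9.17, so array 1 exceeded the highest control by the last digit given. It differed by 0.75, standard error 0.25 (95% interval 0.19 to 1.3, adjusted p = 0.943 by limma), and left-out arrays 2 and 5 stood at 11.14 and 10.9. Genes free of overlap above the controls made up 0.18% of all, and Ddit4 was 1 of 497 listed genes tested to be so placed.

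Other hypoxia genes did not share this. The 17 hypoxia genes had a median of -0.12, with 3 above 0 and 14 below. Vegfa, the vascular growth factor, gave 9.68, 10.12 and 9.24 against 8.98 to 10.67, and Car9, a carbonic anhydrase induced by hypoxia, gave 9.18, 10.63 and 7.68 against 5.19 to 9.7 with control 1 far the lowest. The Car9 difference was 0.38, and it was -0.22 without control 1. Chac1, a glutathione-degrading enzyme of the amino acid stress response, gave 9.64, 10.96 and 13.01 against 9.04 to 11.65 (difference 1.26, standard error 0.73), highest of the 3 on array 4, with left-out arrays 2 and 5 at 13.52 and 12.73. The 18 amino acid and unfolded protein stress genes had a median of 0.11, with 1 at least 2-fold higher (0.709% of all genes were) and 0 called. Over 15 glycolysis genes the median was -0.1, with 1 at least 2-fold lower in the mean (2.21% of all genes were). The median was -0.02 over 19 oxidative phosphorylation genes, 0.09 over 13 cholesterol synthesis genes and -0.12 over 17 immediate early genes. In each of these lists 0 were called.

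Circadian clock genes had a median of -0.38 over 12, with 2 above 0, 10 below, 1 at least 2-fold lower (2.21% of all genes were) and 0 called. Nr1d2, a clock repressor, gave 7.52, 5.53 and 8.15 against 7.52 to 8.63. Per3, a period protein, gave 8.4, 5.31 and 6.92 against 4.73 to 8.35 with 6 of 7 controls above detection, and Ciart, a clock-controlled repressor, gave 8.08, 6.63 and 7.37 against 6.6 to 8.62, control 6 being the lowest control in these 3 genes. Array 3 was the lowest of the 3 in each. Arntl, the activator BMAL1, gave 5.83, 5.24 and 7.02 against 5.69 to 6.9. The time of day of sampling is not given in the labels.

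Day 14 arrays 1, 3 and 4 were also set against day 4 arrays 1, 2 and 3, which carry host transcripts, in a limma model of 13 arrays in 3 groups. None of 9448 genes was called (0%), the adjusted p rounded to 1 at its lowest, and of 98 genes (1.04%) with unadjusted p under 0.05, 32 were higher and 66 lower at day 14. The differences from day 4 were 2.24 for Rnase2a, 1.87 for Chil3, 2.01 for Car4, 1.57 for Retnlg and 1.32 for Mrgprg, and 0.54 for Arg1. Both comparisons use the same day 14 arrays. For hair keratins the differences from day 4 were 2.32 for Krt71 and 2.92 for Krt33a, with day 4 array 1 at a hair list mean of 12.62 and day 4 arrays 2 and 3 at 6.05 and 7.74.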

How the data were processed

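Total RNA of 16 mouse tissue samples was hybridised to Illumina bead arrays after Trizol extraction, column clean-up with DNase and biotin labelling of cRNA, per the labels' protocols. Per the file headers, the deposited scanner table gives an intensity and a detection p-value for each probe and array. The deposited intensity values are linear and, judging by their range, had no background taken off. After the first 22 lines of that table, each deposited detection p-value is printed 2441 lines further down than its signal. Once realigned, p never increased with the signal on any array (0 reversals). A deposited value table, in log2 values of 16247 probes, ranks the probes of each array as the scanner signals do (lowest Spearman correlation 1). The authors' steps behind both tables are not given in the sources used here.

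Signals of all 16 arrays went through neqc of limma 3.58.1 (R 4.3.3), which corrects background from the detection p-values, adds an offset (16 here), equalises the quantiles and takes log2. A probe with 1 gene symbol was kept if 3 or more of the 10 arrays detected it (p below 0.05). This kept 14118 of the 14124 such probes that had a signal, so the detection filter removed almost none. A gene that was not tested may therefore lack a named probe here and need not have been undetected. The probe with the highest mean over the 10 arrays stood for each of 9448 genes. Symbols come from the platform annotation, updated by gene ID. The limma model (lmFit and eBayes, two-sided) held the 3 day 14 and 7 control arrays, with Benjamini-Hochberg adjustment over all genes. Calls needed a change of 2-fold or more and an adjusted p under 0.05. A model of 13 arrays in 3 groups gave the comparison with day 4. The fit was tested on simulated data.

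The arrays, the 37 gene lists and the tests were chosen with earlier results of these data known, and no pattern here is independent support for those results. The lists name 730 genes, of which 497 were tested. Genes named differ by at least 2-fold with no overlap, chose the arrays, lead or open a described list, or belong to a fixed set of tumor and immune genes, and exceptions are stated. Not every leading member of a list is named, as with Thbs2, Tgfbi, Fap and Ccn1 of the wound and tumor matrix list. Groups come from the labels. Settings tried were other background corrections, offsets, normalizations, filters and probe rules, the deposited log2 values, all 5 day 14 arrays, array weights, a replicate block and leaving out single arrays. No slide block was fitted, since slides are not given in the labels.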

Additional observations from a re-analysis of the deposited data

Results flagged for a closer look

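Single controls stood far from the other 6 in 27 of the 122 genes and list means looked at (20 of 87 genes, 7 of 35 lists), by a gap to the nearest control that exceeded Dixon's critical share of the whole range for 7 samples. Chance flags about 5% of such groups, and genes of one tissue vary together. Control 6 was the array in 18 of them, control 1 in 7 and control 5 in 2.

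Control 6 was the highest control, in log2 signal, for Krt28 (12.59), Krt71 (14.35), Krt33a (13.6), Dlx3 (11.94) and the mean of the hair list (13.33), with the nearest control at 6.99, 7.89, 7.46, 9.33 and 8.01. It was also the highest for Cxcl9 (12.05), Cxcl10 (11.04) and Ifi47 (9.58). It was the lowest control for Mcm7 (5.91), Il1r2 (7.43), Per3 (4.73), Adipoq (9.05), Lyve1 (6.39) and Fn1 (10.69), and for the list means of adipocyte (8.66), fibroblast and fibrillar matrix (9.72), complement and coagulation (7.99) and circadian clock genes (7.98).

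Control 1 was the lowest control for the pigment genes Pmel (5.45), Mlana (4.62) and Dct (8.19), with the nearest control at 10.74, 11.48 and 13.69. It was the lowest as well for Car9 (5.19) and for the mean of 8 Schwann cell and nerve genes (8.19), and the highest for Krt6b (13.31) and Mmp13 (8.27). Control 5 was the highest control for Ccl2 (6.76) and the lowest for the mean of 13 cholesterol synthesis genes (9.01). The cause of these gaps was not tested.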

How the results depend on the processing

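The count of called genes against control was 0 under each of 24 other settings, with the lowest adjusted p of each from 0.0886 (without day 14 array 1) to 1, and it was 0.212 with all 5 day 14 arrays. Against day 4 the count was 0 under each setting run. The count of 3 genes at least 2-fold apart with no overlap was 0 with no background correction and with the deposited log2 values, 1 with an offset of 50, 6 with all 5 day 14 arrays, and 17 without control arrays 1 and 6, a setting added after the data were seen. Leaving out 1 array at a time gave 3 to 113. The other settings gave 2 or 3. The setting with no filter on detection is no separate check, because the filter had removed almost no named probes. Of 87 gene differences, 34 kept their sign under every setting that gave a value, and 17 changed it with all 5 day 14 arrays. Of 35 list medians, 4 kept their sign throughout and 12 changed it with all 5 arrays. Array weights turned the sign of 18 gene differences and 15 list medians and made 35 gene differences smaller by over 1.5 times, and leaving out day 14 array 3 turned 27 and 18. No background correction and the deposited log2 values each turned 1 gene difference and made 31 smaller by over 1.5 times, as for Car4 (0.9 and 0.93 in place of 2.02), Mrgprg (0.54 and 0.56 in place of 1.23) and Chil3 (1.15 and 1.17 in place of 2.12). Same-numbered day 14 and control arrays correlated at 0.25, -0.43 and -0.44 in their deviations from the group means. So few pairs, with deviations from a mean of 3 day 14 arrays, cannot settle whether the replicate numbers of the labels pair the samples. With the replicate block, 0 genes were called (lowest adjusted p = 0.976), 3 were apart with no overlap, and 0 were called against day 4. A slide block was not run.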
